A study of Rattus norvegicus with 18 samples.

Results

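Messenger RNA levels were measured by RNA sequencing in the dorsal hippocampus of 18 rats, and the genes described here are 8 of the 38445 genes counted. They encode the cytokines Lif, Clcf1 and Cntf, the shared signaling receptor Il6st (gp130) and the receptor chains Lifr, Osmr, Il6r and Cntfr. The genes were chosen by symbol, with their normalized levels in the 3 groups in view, so their levels and the differences between groups are a description and not an independent test. All animals were adult male Sprague Dawley rats, 75 to 85 days old at purchase, fed a Lieber-DeCarli liquid diet as their only food. The 6 control rats received the diet without ethanol, the 6 ethanol rats were held on 9% v/v ethanol diet for 16 days with no withdrawal, and the 6 withdrawal rats were held on it for 15 days and then returned to control diet for 24 h. Each library came from 1 rat, and the rats were wild type. The comparisons ask which transcripts differed during withdrawal, during continued ethanol intake, and between these states.

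Cytokines of this family bind a ligand-specific receptor chain, which then pairs with gp130, the chain that all of them share. LIF signals through LIFR with gp130, oncostatin M through OSMR with gp130, IL-6 through IL6R with gp130, and CNTF and CLCF1 through CNTFR together with LIFR and gp130. Janus kinases on the receptor tails phosphorylate STAT3, which enters the nucleus and induces SOCS3, an inhibitor of the same receptors. In brain, the family is best known for its part in the reactive state of astrocytes, and LIF is known as a cytokine induced by injury and seizures.

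The 8 genes lie on 4 chromosomes of the rat assembly Rnor_6.0, the build of the deposited counts. Osmr (chromosome 2, 56107491 to 56163522, minus strand) and Lifr (chromosome 2, 56424910 to 56489346, plus strand) lie 261387 bases apart with 2 annotated genes between them. Il6st (44279199 to 44319427, plus strand) and Il6r (189196180 to 189255987, minus strand) are on chromosome 2 as well. Lif (chromosome 14, 84482652 to 84500574, plus strand) starts 13225 bases from Osm, the gene of oncostatin M, with no annotated gene between them. Clcf1 (219468866 to 219472445, plus strand) and Cntf (229599009 to 229601032, minus strand) are on chromosome 1, and Cntfr (58041114 to 58078687, minus strand) is on chromosome 5. No exon base of a member was shared with another annotated gene, and read pairs mapping to several places were not counted.

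The RefSeq promoter set of assembly GRCr8 held a window for 5 of the 8 genes, namely Lifr, Osmr, Il6st, Il6r and Cntf. The 250 bases before the start are shown for Osmr and Lifr because these receptor chains lie close together on the chromosome and Osmr was called in both comparisons of the withdrawal rats while Lifr was called in none. The Osmr window is chr2:57688562-57688811 on the minus strand, and the Lifr window is chr2:57963139-57963388 on the plus strand. Both are written 5′ to 3′ along the gene, and capitals mark a match to TGANTCA, the AP-1 type motif.
Osmr: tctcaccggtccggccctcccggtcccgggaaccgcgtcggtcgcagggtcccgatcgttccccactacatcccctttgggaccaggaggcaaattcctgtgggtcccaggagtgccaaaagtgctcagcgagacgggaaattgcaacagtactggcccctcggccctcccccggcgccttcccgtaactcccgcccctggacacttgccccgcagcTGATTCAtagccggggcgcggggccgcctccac
Lifr: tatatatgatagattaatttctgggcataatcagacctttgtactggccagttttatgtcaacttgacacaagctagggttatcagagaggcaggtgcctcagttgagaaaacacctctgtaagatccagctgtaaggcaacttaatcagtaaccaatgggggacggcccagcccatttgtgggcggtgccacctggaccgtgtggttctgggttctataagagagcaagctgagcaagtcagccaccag

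The Osmr window had a G and C content of 67.6% and the Lifr window of 48.0%. The Osmr window held TGATTCA beginning 33 bases before the start, and the Cntf window held TGAGTCA beginning 72 bases before the start. TGANTCA was present in 6.34% of all 33469 windows of the same length. The STAT type motif TTCNNNGAA, present in 7.67% of all windows, and the CRE motif TGACGTCA, present in 1.59%, were in none of the 5 windows. Each of these motifs reads the same on both strands, and the capitals in the Osmr window are the only match in the windows shown. A match or its absence describes the letters of these windows only.

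The total count per rat was 30873228 to 42679748. Levels are TMM-scaled counts relative to library size (CPM), and each mean ± SD is over 6 separate animals. In bulk tissue, fewer cells of a type and less RNA per cell cannot be told apart. Genes above 0.5 CPM in at least 1 rat, 17853 in all and among them all 8 members, were fitted in 1 limma-voom model of the 18 rats with 3 surrogate variables, which are unnamed sources of variation estimated from the data. The q values are Benjamini-Hochberg adjusted over all genes tested, and a gene was called at q < 0.1.

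The libraries carried index sequences of 3 sets. The first was used for all 6 control rats, the second for all 6 ethanol rats and withdrawal rats 1 and 2, and the third for withdrawal rats 3 to 6, so that index set and diet cannot be told apart in comparisons with the control rats. Markers of hippocampal neurons were detected in every rat, with a summed level of 683 to 923 CPM in control, 481 to 940 CPM in ethanol and 282 to 830 CPM in withdrawal rats, the lowest in withdrawal rat 5. The 10 markers of choroid plexus summed to 1184 to 2476 CPM in control and 1599 to 5709 CPM in ethanol rats, but to between 34.5 and 5771 CPM in withdrawal rats. Withdrawal rat 1 had the highest level of all 18 rats for 5 of the 8 members and for 18 of 50 other genes of the pathway. The share over all genes was not counted, so nothing particular to the pathway is read from these counts.

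Per length of exon, the receptor chains Cntfr and Il6st were the most abundant of the 8 transcripts and the cytokine Lif the least. In control rats the mean was 21.9 CPM per kb for Cntfr, 16.8 for Il6st, 6.08 for Cntf, 4.21 for Lifr, 3.88 for Il6r, 1.33 for Clcf1, 0.425 for Osmr and 0.0909 for Lif. The control rats did not overlap between neighbours in this order except for Lifr and Il6r. Cntf and Lifr were barely apart, with the lowest control rat at 5.104 CPM per kb for Cntf and the highest at 5.092 CPM per kb for Lifr.

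**Figure D1:**
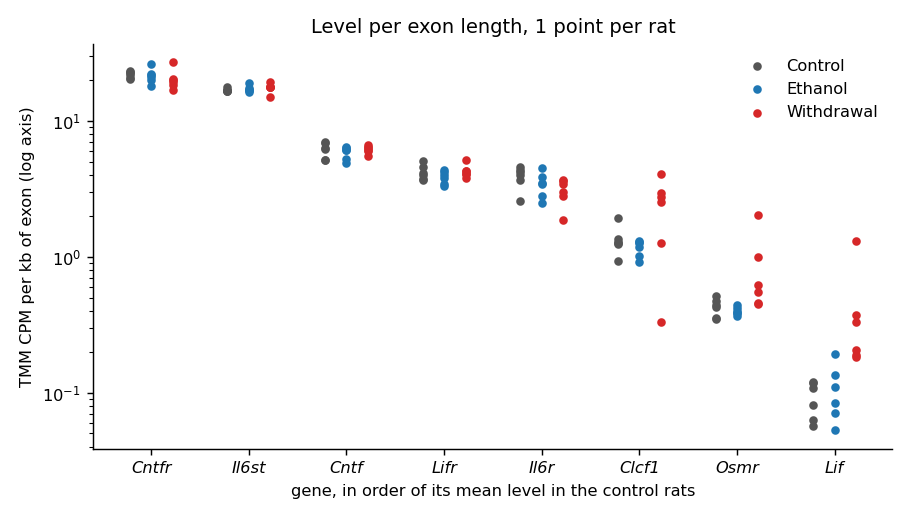
TMM CPM per kb of exon on a log axis for each of the 8 genes in order of the control mean, with 1 point per rat and a color per group. Cntfr and Il6st form the top of the order in all 3 groups, and the widest spread is in Clcf1, Osmr and Lif of the withdrawal rats.

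Of the cytokines, Lif had a higher level in the withdrawal rats, while Cntf had nearly the same level in all 3 groups and Clcf1 varied widely among the withdrawal rats. Lif was at 0.161 CPM in the lowest, 0.266 CPM in the median and 0.336 CPM in the highest control rat. It was at 0.148, 0.274 and 0.538 CPM in the lowest, median and highest ethanol rat. In withdrawal rats 1 to 6 it was at 3.68, 0.517, 0.934, 0.530, 1.05 and 0.581 CPM. Every withdrawal rat thus lay above every control rat, and withdrawal rats 2 and 4 lay below the highest ethanol rat. The means were 0.256 ± 0.0775 CPM in control, 0.302 ± 0.141 CPM in ethanol and 1.22 ± 1.23 CPM in withdrawal rats (SD, n = 6 each). These levels rest on 5 to 12 counts per control rat, 6 to 19 per ethanol rat and 19 to 113 per withdrawal rat, so that counting error limits the precision of the control and ethanol levels.

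Fitted in limma, withdrawal rats differed in Lif from controls by a log2 fold change of 1.84 ± 0.35 (SE), with q = 0.0203. They differed from ethanol rats by 1.34 ± 0.37, with q = 0.0863, and ethanol rats differed from controls by 0.50 ± 0.42, with q = 0.671. Without withdrawal rat 1, the rat with the highest level, the difference from control was 1.49 with q = 0.0318 and from ethanol 1.02 with q = 0.0966. Without withdrawal rat 6 it was 1.92 from control with q = 0.104 and 1.44 from ethanol with q = 0.316. The call against ethanol was also lost without any of control rats 1, 2, 4 and 6 or ethanol rats 2, 3 and 6, where the smallest value was 0.92 (q = 0.385, without ethanol rat 2).

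Clcf1, a ligand of the CNTF receptor, was at 1.74 CPM in the lowest, 2.34 CPM in the median and 3.57 CPM in the highest control rat. The ethanol rats lay within that spread apart from the lowest of them, at 1.69 CPM, with a median of 2.27 CPM and a highest level of 2.42 CPM. In withdrawal rats 1 to 6 Clcf1 was at 7.58, 2.33, 5.48, 4.66, 0.618 and 5.13 CPM. Withdrawal rats 1, 3, 4 and 6 were above every control and ethanol rat, and withdrawal rat 5 was below all of them. The mean was 2.46 ± 0.603 CPM in control, 2.15 ± 0.299 CPM in ethanol and 4.30 ± 2.47 CPM in withdrawal rats. In limma the withdrawal rats did not pass the threshold against control, at a log2 fold change of 0.69 ± 0.28 and q = 0.190, or against ethanol, at 0.75 ± 0.31 and q = 0.234. Without withdrawal rat 5, whose summed level of hippocampal neuron markers was the lowest, the values were 0.94 with q = 0.0400 and 0.98 with q = 0.0708. Without withdrawal rat 2 the values were 0.89 with q = 0.0488 and 0.95 with q = 0.0746. With 4 surrogate variables Clcf1 was called against control (q = 0.0602) and against ethanol (q = 0.0914) in limma. Against control it was also called by DESeq2 (q = 0.0606) and in limma with the replicate number as a block (q = 0.0644). Most fits did not call Clcf1. Against control it was called in 2 of 18 fits that each left out 1 rat and in 3 of 12 other settings, with q up to 0.727. Against ethanol these were 2 of 18 and 1 of 12, with q up to 0.508.

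Cntf, a neurotrophic cytokine made by glia, had a mean of 6.65 ± 0.859 CPM in control, 6.39 ± 0.683 CPM in ethanol and 6.75 ± 0.422 CPM in withdrawal rats. Its withdrawal rats, between 6.04 and 7.23 CPM, all lay inside the range of the control rats, which was 5.58 to 7.58 CPM. Its log2 fold change was 0.02 ± 0.08 in withdrawal and -0.11 ± 0.09 in ethanol rats relative to control, and 0.13 ± 0.10 in withdrawal relative to ethanol rats, with q of 0.526 or more.

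**Figure D2:**
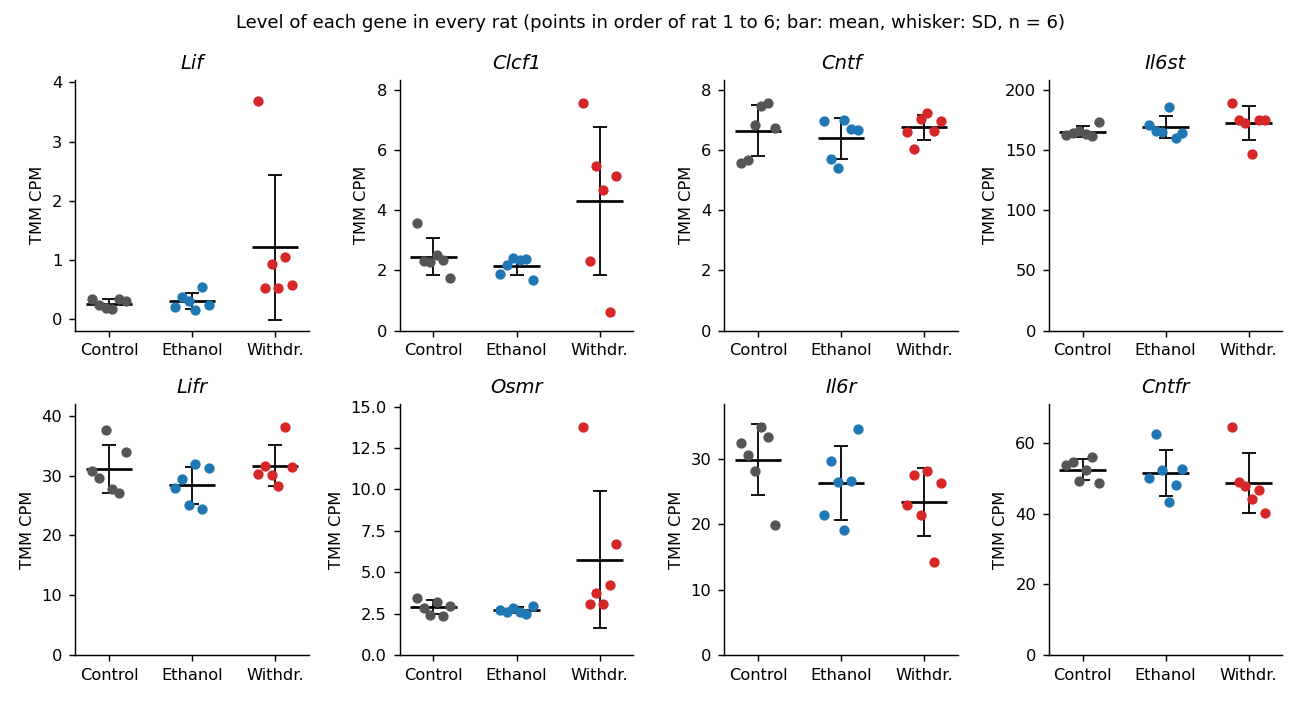
TMM CPM of each gene in every rat by group, with 1 point per rat, the mean as a bar and the SD as a whisker (n = 6 per group). Withdrawal rat 1 is the highest point for Lif, Clcf1, Osmr, Il6st and Cntfr, and the Lif panel shows the 6 withdrawal rats above the 6 control rats.

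Among the receptor chains, Osmr was higher in withdrawal rats, and Il6st, Lifr, Il6r and Cntfr did not pass the threshold in any comparison. Osmr, the signaling chain for oncostatin M, was at 2.36 CPM in the lowest, 2.92 CPM in the median and 3.45 CPM in the highest control rat. The ethanol rats were close together, at 2.47, 2.66 and 2.97 CPM for the lowest, median and highest. In withdrawal rats 1 to 6 it was at 13.8, 3.05, 3.74, 3.10, 4.22 and 6.68 CPM. All 6 withdrawal rats lay above every ethanol rat, whereas withdrawal rats 2 and 4 lay inside the range of the control rats. The mean was 2.88 ± 0.432 CPM in control, 2.70 ± 0.185 CPM in ethanol and 5.76 ± 4.14 CPM in withdrawal rats.

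In limma, Osmr had a log2 fold change in withdrawal rats of 0.86 ± 0.24 against control, with q = 0.0715, and of 0.97 ± 0.27 against ethanol, with q = 0.0912. In ethanol rats it was -0.11 ± 0.29 against control, with q = 0.914. Without withdrawal rat 1 the first value fell to 0.58 with q = 0.0860, and without withdrawal rat 6 it was 0.76 with q = 0.229. Against ethanol, the value without rat 6 was 0.81 with q = 0.381. The calls of Osmr against control were also lost without any of control rats 1, 2, 3, 5 and 6, with q up to 0.146 and values between 0.77 and 0.86. Those against ethanol were lost without any of the 6 control rats or ethanol rats 2, 3, 4 and 6, where the smallest value was 0.74 (q = 0.351, without ethanol rat 2).

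Il6st, the shared chain, varied little, with a mean of 165 ± 4.31 CPM in control, 169 ± 9.16 CPM in ethanol and 172 ± 13.9 CPM in withdrawal rats. The control rats lay between 162.0 and 173 CPM, the ethanol rats between 160.2 and 186 CPM and the withdrawal rats between 147 and 189 CPM. Both the lowest rat, withdrawal rat 4, and the highest, withdrawal rat 1, were thus withdrawal rats. Relative to control, limma gave Il6st a log2 fold change of 0.07 ± 0.03 in withdrawal (q = 0.258) and -0.01 ± 0.04 in ethanol rats (q = 0.967), and relative to ethanol one of 0.08 ± 0.04 in withdrawal rats (q = 0.317).

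Lifr, which takes part in the receptors of LIF, CNTF and CLCF1, ranged from 27.1 to 37.7 CPM in control, from 24.5 to 31.95 CPM in ethanol and from 28.3 to 38.2 CPM in withdrawal rats. The groups overlapped, and the highest level was in withdrawal rat 5. The mean was 31.2 ± 4.02 CPM in control, 28.4 ± 3.10 CPM in ethanol and 31.6 ± 3.42 CPM in withdrawal rats. Against control, Lifr had a log2 fold change of -0.19 ± 0.08 in ethanol rats, with q = 0.365, and 0.01 ± 0.08 in withdrawal rats, with q = 0.977. Withdrawal rats differed from ethanol rats by 0.19 ± 0.09, with q = 0.267.

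Il6r, the chain that binds IL-6, had a mean of 29.9 ± 5.44 CPM in control, 26.3 ± 5.62 CPM in ethanol and 23.5 ± 5.23 CPM in withdrawal rats. The ranges were wide and overlapped, from 19.9 to 34.9 CPM in control, 19.1 to 34.7 CPM in ethanol and 14.2 to 28.2 CPM in withdrawal rats, with the lowest level in withdrawal rat 5. Withdrawal rats differed from controls in Il6r by a log2 fold change of -0.30 ± 0.12, which did not pass the threshold (q = 0.165). In a limma model of only these groups it did, at -0.31 with q = 0.0884. Ethanol rats differed from controls by -0.09 ± 0.12, and withdrawal rats from ethanol rats by -0.21 ± 0.13, with q of 0.811 and 0.435 in limma. Without ethanol rat 5 the latter was -0.34 with q = 0.0873. Nearly all other fits did not call Il6r. Against control it was called in 0 of 18 fits that each left out 1 rat and in 1 of 12 other settings, with q up to 0.547. Against ethanol these were 1 of 18 and 0 of 12, with q up to 0.778.

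Cntfr, the chain that binds CNTF and is anchored to the membrane by a lipid, had a mean of 52.4 ± 2.94 CPM in control, 51.5 ± 6.45 CPM in ethanol and 48.6 ± 8.36 CPM in withdrawal rats. Withdrawal rat 1 had the highest level of all rats, 64.5 CPM, and withdrawal rat 6 the lowest, 40.2 CPM. Against control, the log2 fold change of Cntfr in limma was -0.13 ± 0.08 in withdrawal (q = 0.332) and 0.05 ± 0.08 in ethanol rats (q = 0.859), and withdrawal rats differed from ethanol rats by -0.18 ± 0.08 (q = 0.285).

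**Figure D3:**
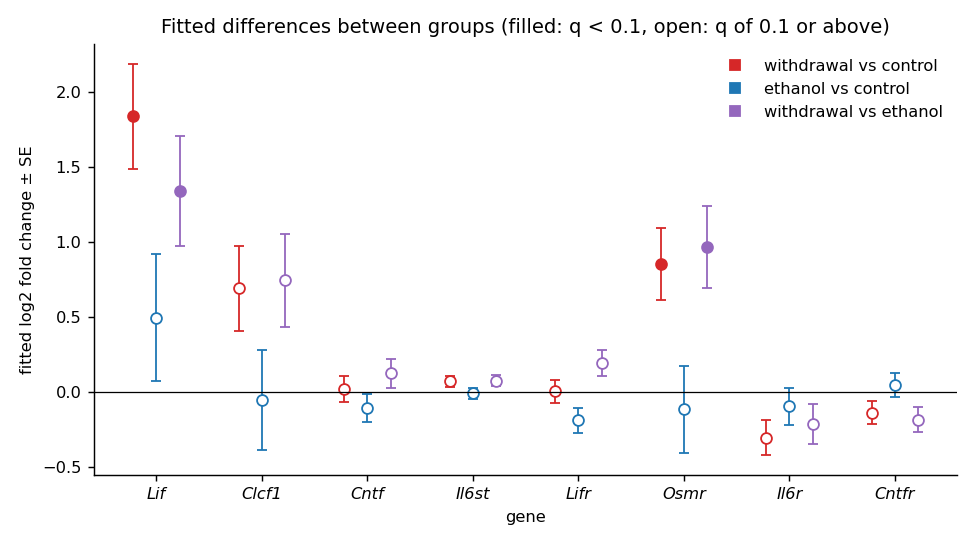
Fitted log2 fold change ± SE of each gene in the 3 comparisons, with filled points for q < 0.1 and open points for the others. Lif and Osmr have the filled points, in both comparisons of the withdrawal rats, and Clcf1 has values of 0.69 and 0.75 with open points.

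Over the whole family, 2 of 8 members were called between withdrawal and control, both higher, where 5.41% of all genes tested were called. Between withdrawal and ethanol 2 of 8 were called, both higher, against 2.89% of all genes. These comparisons share the withdrawal rats, and the members were chosen with these values in view, so nothing is read from the counts. Between ethanol and control 0 of 8 were called by limma, against 0.493% of all genes, and Lifr alone had an unadjusted p under 0.05, which is 1 of 8 beside 12.5% of all genes. An unadjusted p under 0.05 was found for 4 of 8 between withdrawal and control, beside 19.8% of all genes, and for 5 of 8 between withdrawal and ethanol, beside 16.9%. Between ethanol and control the edgeR and DESeq2 fits also called 0 members, with no q from DESeq2 for Lif and with 2.65% of all genes called by DESeq2. Between withdrawal and control DESeq2 called 3 of 8, beside 9.1% of all genes, and between withdrawal and ethanol 1 of 8, beside 6.59%, again with no q for Lif. The 8 members had a median log2 fold change against control of 0.05 in withdrawal and -0.07 in ethanol rats, and against ethanol of 0.16 in withdrawal rats, where the medians over all genes were 3.03e-04, 4.55e-04 and -2.36e-04.

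Lif was the only member whose 6 withdrawal rats did not overlap the 6 control rats, and Osmr the only one whose withdrawal and ethanol rats did not overlap. Of all genes tested, 1.06% had no overlap between withdrawal and control and 1.22% between withdrawal and ethanol. No member was free of overlap between ethanol and control, where 1.32% of all genes were.

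The calls against control, and in limma that of Osmr against ethanol, depended on the surrogate variables. Without them, the log2 fold change of withdrawal rats against control was 1.77 for Lif with q = 0.157 and 0.75 for Osmr with q = 0.318 in limma, and 0 members were called. Against ethanol without them, limma gave Lif 1.62 with q = 0.0902 and Osmr 0.82 with q = 0.158, and edgeR called 2 members. Only withdrawal rats 1 and 2 shared an index set with the ethanol rats. Relative to the ethanol rats, the mean log2 CPM of these 2 rats differed by 2.13 for Lif, 1.25 for Osmr and 0.96 for Clcf1. Withdrawal rat 1 carried most of this, since for withdrawal rat 2 alone, a split chosen after seeing the data, the difference was 0.77 for Lif, 0.18 for Osmr and 0.12 for Clcf1. The same difference for the 4 withdrawal rats of the other index set was 1.25 for Lif, 0.65 for Osmr and 0.50 for Clcf1. For Il6st it was 0.11 in the first and -0.01 in the second of these groups. These differences carry no test, and the part of the index set in them was not tested.

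Lif and Osmr had a Pearson r of 0.81 in log2 CPM over the 18 rats. It was 0.65 after the group means were removed and 0.54 without withdrawal rat 1. Of all tested genes outside the family, those whose levels followed Lif most closely were Col4a1, a basement membrane collagen (r = 0.919), Pcbp1, an RNA-binding protein (r = 0.918), and Dot1l, a histone methyltransferase (r = 0.900). Without withdrawal rat 1 these were 0.876, 0.868 and 0.771. For Osmr they were Fgl2, a fibrinogen-like protein (r = 0.937), Bcor, a transcriptional corepressor (r = 0.934), and Bcl3, a nuclear regulator of NF-kB (r = 0.923), with 0.794, 0.799 and 0.793 without that rat. The Spearman rho of Bcl3 with Osmr was 0.494, well under its r. For Il6st they were the kinase Prkd3 (r = 0.872), the caveolar protein Cavin1 (r = 0.843) and the disulfide isomerase P4hb (r = 0.837). The 18 points share 3 diets and 3 index sets and are described without a test.

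The other ligands of the family were low or did not pass the threshold. Osm, the ligand of the Osmr chain, had 6 to 20 counts per rat, with a mean of 0.282 ± 0.0743 CPM in control, 0.363 ± 0.134 CPM in ethanol and 0.350 ± 0.138 CPM in withdrawal rats. Against control, its log2 fold change in limma was 0.21 ± 0.22 in withdrawal rats, with q = 0.627, and 0.64 ± 0.23 in ethanol rats, with q = 0.254. Withdrawal rats differed from ethanol rats in Osm by -0.43 ± 0.23, with q = 0.357. Il6 had between 1 and 5 counts in the control rats, 1 to 4 in the ethanol rats and 0 to 13 in the withdrawal rats and was not tested, with its highest level in withdrawal rat 6. At this depth, 3 counts, the limit that a count of 0 allows, stood for 0.0705 to 0.0976 CPM depending on the rat, and such limits cover counting error only. Il27 had 0 to 4 counts per rat and Ctf2 at most 1, and neither was tested. Il11 and Ctf1, at 0.734 ± 0.275 and 2.71 ± 0.277 CPM in control rats, had log2 fold changes of 0.04 ± 0.36 and 0.01 ± 0.16 in withdrawal rats against control, with q of 0.964 and 0.990.

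Ebi3, the partner chain of IL-27, had a mean of 2.29 ± 0.289 CPM in withdrawal rats beside 2.81 ± 0.368 CPM in controls, with a log2 fold change of -0.27 ± 0.12 and q = 0.202. Of the other receptor chains, Il27ra fell in withdrawal. It was at 0.683 ± 0.236 CPM in control, 0.636 ± 0.211 CPM in ethanol and 0.339 ± 0.107 CPM in withdrawal rats, on 8 to 34 counts per rat. Its fitted log2 fold change was -1.01 ± 0.24 against control (q = 0.0423) and -1.10 ± 0.26 against ethanol (q = 0.0569) in limma. Il11ra1, with 0.02 ± 0.07 between withdrawal and control (q = 0.892), did not pass the threshold, and Il31ra, with 0 to 4 counts per rat, was not tested.

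Downstream of the receptors, Stat3 and its feedback inhibitor Socs3 rose in withdrawal relative to control, and Jak1 was not called. Stat3, the main transcription factor of the pathway, was at 60.2 ± 2.73 CPM in control, 63.5 ± 4.84 CPM in ethanol and 74.9 ± 15.9 CPM in withdrawal rats. It was highest in withdrawal rats 1 and 6, at 104.4 and 81.8 CPM, and the other 4 withdrawal rats were between 63.8 and 69.3 CPM. Stat3 rose by a log2 fold change of 0.32 ± 0.07 against control (q = 0.0370) and 0.29 ± 0.08 against ethanol (q = 0.0974). The call against control was kept in 17 of 18 fits that each left out 1 rat, and that against ethanol in 8 of 18, with q up to 0.368, and in 4 of 12 other settings. The call against ethanol was lost without any 1 of the 6 control rats, whose counts also enter the model. Socs3 was at 11.8, 1.74, 3.15, 1.73, 1.53 and 5.91 CPM in withdrawal rats 1 to 6, all above the highest control rat at 1.49 CPM. The highest withdrawal rats for Socs3, rats 1 and 6, were also the highest for Osmr and Stat3. The log2 fold change of Socs3 was 1.47 ± 0.37 against control (q = 0.0479), and against ethanol it was 1.25 ± 0.38, which did not pass the threshold (q = 0.113). Jak1, a kinase bound to the receptor tails, had a mean of 252 ± 13.7 CPM in withdrawal rats beside 248 ± 11.5 CPM in controls, with a log2 fold change of 0.04 ± 0.04 and q = 0.615. Stat5b rose against control by 0.22 ± 0.06 (q = 0.0616), and the phosphatase gene Ptpn6 rose against ethanol by 0.35 ± 0.08 (q = 0.0552). These calls were kept in 11 of 18 fits without 1 rat for Stat5b and 15 for Ptpn6.

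Of 18 tested genes listed as targets of the pathway, 6 rose and 0 fell between withdrawal and control in limma, where 5.41% of all genes tested were called. They were Gfap, the astrocyte intermediate filament (log2 fold change 0.54, q = 0.0767), the protease inhibitor Timp1 (1.33, q = 0.0784), the transcription factors Myc (0.50, q = 0.0520), Bcl3 (1.09, q = 0.0784) and Cebpd (0.59, q = 0.0484), and the adhesion molecule Icam1 (0.56, q = 0.0777). Without withdrawal rat 1, 4 of the 6 were not called, Timp1 (0.89, q = 0.133), Bcl3 (0.79, q = 0.143), Gfap (0.45, q = 0.195) and Myc (0.37, q = 0.115), while Icam1 (0.37, q = 0.0714) and Cebpd were. The calls were kept in 10 of 18 fits that each left out 1 rat for Timp1 and Bcl3, 9 for Gfap, 12 for Icam1 and 15 for Myc and Cebpd, and none of the 6 was called without withdrawal rat 6. Gfap was at 639 CPM in withdrawal rat 5 and between 1321 and 1530 CPM in the other 5, with 849 to 996 CPM in the control rats. Gfap also rose against ethanol, by 0.74 ± 0.17 (q = 0.0552), the only listed target called there. The targets had a median log2 fold change in withdrawal rats of 0.49 against control and 0.25 against ethanol.

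Of all 44 tested genes of the pathway outside the family, 9 rose and 1 fell between withdrawal and control, beside 5.41% of all genes called, with a median log2 fold change of 0.14. Between withdrawal and ethanol 4 rose and 1 fell, beside 2.89% of all genes, with a median of 0.13. Between ethanol and control 0 were called by limma, beside 0.493% of all genes, 0 by edgeR with 3 surrogate variables, and 3 by DESeq2, beside 2.65% of all genes called by DESeq2, and the median was 0.05. An unadjusted p under 0.05 was found for 7 of the 44 in that comparison and for 12.5% of all genes. It was found for 22 of 44 between withdrawal and control, beside 19.8% of all genes, and for 18 of 44 between withdrawal and ethanol, beside 16.9%. Without withdrawal rat 6, 0 of them were called in either comparison of the withdrawal rats, and without withdrawal rat 1, 6 were called against control. Without the surrogate variables, 0 were called against control and 1 against ethanol in limma, and 0 and 2 in edgeR. Since the list was drawn up with earlier results of these data known, its counts are a description.

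**Figure D4:**
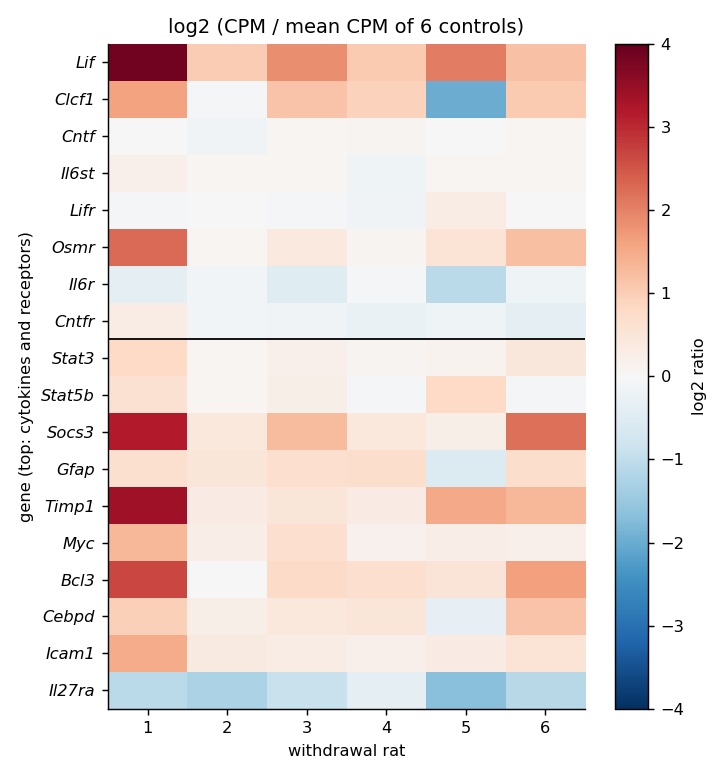
Color map of the log2 ratio of CPM in each of the 6 withdrawal rats to the mean CPM of the 6 control rats, for the 8 members (above the line) and the 10 other pathway genes called against control (below it). Withdrawal rat 1 is darkest for Lif, Osmr, Socs3, Timp1 and Bcl3, and withdrawal rat 5 is more than 0.5 below the control mean for Clcf1, Il6r, Gfap and Il27ra.

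Some markers of other cell types were called between withdrawal and control, where 5.41% of all genes tested were called. Without surrogate variables, 41 genes were called in that comparison, beside 965 with them. Of 10 endothelial markers, 5 rose between withdrawal and control, and their summed level was 340 to 415 CPM in control, 372 to 428 CPM in ethanol and 358 to 460 CPM in withdrawal rats, the highest in withdrawal rat 1. Of 10 microglial markers 2 rose, with sums of 307 to 389 CPM in withdrawal rats beside 323 to 387 CPM in controls. Of 10 astrocyte markers 1 rose and 2 fell, with sums of 3610 to 4263 CPM in withdrawal rats beside 3636 to 3982 CPM in controls. None of the markers in these 3 lists was at 0. Of the other lists, 1 of 8 tested pericyte and smooth muscle markers rose between withdrawal and control. In that comparison 1 of 8 tested hippocampal neuron markers and 2 of 2 tested blood markers fell. There, 0 markers of fibroblasts and meninges, choroid plexus, oligodendrocytes or thalamus were called. The 2 tested blood markers also fell between ethanol and control, where 0.493% of all genes were called. The blood sums were 58.6 to 104.5 CPM in control, 16.7 to 40.4 CPM in ethanol and 18.3 to 65.7 CPM in withdrawal rats. Of the fibroblast and meninges list, Col1a2 and Ogn were listed at 0 counts in every rat, while Col1a1 and Dcn were detected. The part of cell composition in the levels of Lif, Osmr and the pathway genes was not tested.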

How the data were processed

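Stranded libraries of 18 rats were sequenced from both ends. For alignment to Rnor_6.0 the authors used STAR 2.5.2a, and the deposited values are unnormalized, strand-specific counts from featureCounts 1.5.0, listed by gene identifier. Of 38445 identifiers, 29322 were named from RefSeq (GRCr8, names only). Groups came from the sample labels. No repeated library was found among 45 pairs of rats of the same group (chi-square per degree of freedom of at least 5.44). Counts were normalized with TMM (edgeR 4.0.16), filtered at 0.5 CPM in 1 rat, and fitted with sva 3.50.0 and limma 3.58.1 in R 4.3.3, the method tested on simulated data. In the simulation the hidden variation was balanced between groups, unlike the index sets, and the genes set to change had higher means than Lif. The members, pathway genes and marker lists were chosen with earlier results of these data known. The text names the members, pathway genes with q < 0.1 in any comparison, the other ligands and receptors, Stat3, Jak1 and Socs3, and the 3 genes most correlated with Lif, Osmr and Il6st, apart from some that are not reported here. Other surrogate variable numbers, edgeR, DESeq2 1.42.0, filters, scaling, replicate blocks and leaving out rats were the alternatives. Depth, 30873228 to 42679748 counts per rat, limits genes such as Lif. Python 3.11.15 and matplotlib 3.10.9 made the plots. Promoter sequences are RefSeq's.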

Additional observations from a re-analysis of the deposited data

Results flagged for a closer look

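Each group of 6 rats was searched for a highest or lowest rat that stood apart from the rest by a gap that, divided by the range of the group, exceeded Dixon's 95% critical value, for the 8 members and the 12 other pathway genes called in any comparison. Chance flags about 1 in 20 groups, and 11 of the 60 groups searched had such a rat. Withdrawal rat 1 stood apart for Lif (3.68 CPM), Osmr (13.8 CPM) and Cntfr (64.5 CPM), and for the pathway genes Timp1 (18.9 CPM), Myc (9.60 CPM) and Icam1 (12.01 CPM), in each case above the other withdrawal rats. Withdrawal rat 5 stood apart for Lifr (38.2 CPM, the highest) and Gfap (639 CPM, the lowest of its group). Ethanol rat 5 was the highest of its group for Socs3 (2.81 CPM) and Cebpd (15.4 CPM). Control rat 6 was the highest of its group for Il6st (173 CPM). Reasons were not tested.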

How the results depend on the processing

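Beside the 965 genes and 2 members called between withdrawal and control, 41 genes and 0 members were called without surrogate variables, 601 and 1 with 2 of them, 33 and 0 by edgeR without them, 1624 genes and 3 members by DESeq2, 490 genes without a filter, and 384 and 1 at q < 0.05. There were also 3 members with 4 surrogate variables and in a model of only these groups. Between withdrawal and ethanol, beside 516 and 2, there were 621 genes and 1 member without surrogate variables, and 682 and 2 by edgeR without them. There were 275 genes and 0 members with 2 surrogate variables, 942 genes and 3 members with 4, and 1 member by edgeR with 3. DESeq2 called 1176 genes and 1 member, and gave no q for Lif. There was 1 member with 0.5 CPM in 6 rats. There were 192 and 0 without a filter, 119 and 0 at q < 0.05, and 0 and 0 in a model of only the withdrawal and ethanol rats. Between ethanol and control, beside 88 genes and 0 members, 50 genes were called without surrogate variables, 225 with 4, 473 by DESeq2, 9 without a filter, 10 at q < 0.05 and 28 in a model of only these groups, and 0 members in all of these.

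When a replicate block was added to the 3 surrogate variables, 1081 genes and 3 members were called between withdrawal and control, 33 genes between ethanol and control, and 94 genes and 0 members between withdrawal and ethanol. With the block and no surrogate variables, 0 genes and 0 members were called between withdrawal and control, 0 genes between ethanol and control, and 14 genes and 0 members between withdrawal and ethanol. Rats with the same number are different animals, and the correlation of their deviations from the group means ran from -0.325 to 0.383. The authors pair fed the rats, but the labels do not say whether equal numbers mark such pairs, and these correlations cannot tell.

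Leaving out 1 rat gave 23 to 1948 genes and 0 to 3 members between withdrawal and control, 0 to 257 genes and 0 to 0 members between ethanol and control, and 0 to 1856 genes and 0 to 3 members between withdrawal and ethanol. The fewest calls between withdrawal and control, 23 genes, came without withdrawal rat 6. Between withdrawal and ethanol, 0 genes were called without withdrawal rat 6, ethanol rat 2 or ethanol rat 3. Without withdrawal rats 1 and 5 together, chosen after seeing the data, 303 genes and 1 member were called between withdrawal and control, 420 genes between ethanol and control, and 1 member between withdrawal and ethanol. Without withdrawal rat 1 and surrogate variables, also chosen after seeing the data, 0 genes and 0 members were called between withdrawal and control, and 164 genes and 1 member between withdrawal and ethanol. No called log2 fold change of a member or named pathway gene turned its direction under any of these. Causes were not tested.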
